A study of Mus musculus with 15 samples.

Results

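The ectodysplasin pathway genes are the ligand Eda, its receptors Edar and Eda2r, and Edaradd, the adaptor of EDAR. These 4 genes were taken by symbol from a table of 54232 genes, and all 4 passed the filter on low counts that left 22151 genes for testing. The study measured gene expression by bulk RNA sequencing in the secondary palate, the tissue that separates the oral from the nasal cavity, of wild-type mice. Each of the 5 stages (E13.5 to E16.5 at daily steps, and P0, the day of birth) was sampled in 3 libraries, each from a pool of palates of 3 embryos. All groups were wild type and untreated as far as the labels say, and no strain was given. The pools of a stage carry no further label, so p-values measure the spread between pools.

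Ectodysplasin is a transmembrane protein of the tumour necrosis factor (TNF) family that furin-type proteases release from the cell. One splice form binds EDAR, which recruits EDARADD and, through TRAF and TAK1 proteins and the IKK kinases, activates NF-kB. A slightly shorter form binds EDA2R instead, a receptor that signals without EDARADD and is also known as a target of p53. Loss of the ligand, EDAR or EDARADD impairs hair, teeth, glands and, in mice, the palatal rugae, the ridges of the oral palate. EDAR acts in epithelial placodes, while in skin and teeth ligand and receptor are often made in neighbouring cell groups.

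The splice forms that choose the receptor differ by 6 bases, which decides what a gene-level count of Eda can say. In the GENCODE M21 transcripts of GRCm38, 3 coding transcripts of Eda end the exon at X:100395149 and 5 end it at X:100395143. Of these 5, 2 continue at X:100396905, as the longer form does, and 3 at X:100395675. A single further coding transcript ends the exon at X:100395107. Both junctions are shown, with 30 bases before the alternative part and 20 bases of the exon that starts at X:100396905, since reads across them would be needed to tell the ligand of EDAR from that of EDA2R. Capitals mark the 6 bases that only the longer form holds.
Eda, longer form: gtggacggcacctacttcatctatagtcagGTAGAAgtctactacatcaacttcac
Eda, shorter form: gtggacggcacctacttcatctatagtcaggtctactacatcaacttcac
The deposited counts are summed over all exons of a gene, so the forms were not separated here and every Eda value below is their sum.

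Eda (ENSMUSG00000059327.9) lies on the plus strand of chromosome X, at X:99975606-100400762 on GRCm38, with 6825 exonic bases. Edar (ENSMUSG00000003227.4) lies on the minus strand at 10:58600789-58675654 with 3637 exonic bases. Edaradd (ENSMUSG00000095105.2) lies on the minus strand at 13:12472632-12520438 with 6668 exonic bases. Eda2r (ENSMUSG00000034457.10) lies on the minus strand at X:97333840-97377216 with 5891 exonic bases, so the 2 genes that changed with stage are both X-linked.

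The promoters of these X-linked genes are shown because Eda and Eda2r were the members whose levels rose. Each run is the 250 bases before the gene's start in RefSeq on GRCm38.p6, 5′ to 3′ on the gene's strand, with matches to the searched motifs in capitals.
Eda promoter, X:99975356-99975605, plus strand: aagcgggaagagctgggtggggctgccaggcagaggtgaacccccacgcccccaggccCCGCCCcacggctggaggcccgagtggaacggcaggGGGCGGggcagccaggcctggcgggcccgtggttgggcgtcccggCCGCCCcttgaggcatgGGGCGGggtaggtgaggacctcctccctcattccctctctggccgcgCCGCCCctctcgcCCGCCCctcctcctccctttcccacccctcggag
Eda2r promoter, X:97377210-97377459, minus strand: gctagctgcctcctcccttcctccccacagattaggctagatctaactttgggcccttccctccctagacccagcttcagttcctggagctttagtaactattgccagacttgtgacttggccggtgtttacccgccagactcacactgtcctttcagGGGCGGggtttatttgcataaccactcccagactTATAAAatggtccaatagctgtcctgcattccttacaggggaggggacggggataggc
The promoters differ in composition. The Eda window had 75.6% G and C and 19 CpG pairs, against medians of 52.4% and 6 over 32817 RefSeq promoter windows of that length. The Eda2r window had 53.2% and 4 CpG pairs. On both strands, Eda held 6 matches to the GC box GGGCGG, at positions from -192 to -34, and none to TATAAA. Eda2r held TATAAA at -58 and GGGCGG at -92. Of all windows, 32.7% held GGGCGG and 12.4% held TATAAA. The TCF/LEF core CTTTGA, found in 13.8% of windows, matched in Edar at -233 and in none of the other 3 members. An NF-kB consensus (3.9% of windows) and a p53 decamer motif (7.12%) matched in none of the 4 windows. Motif matches did not overlap one another, and they describe these letters only. These data hold no measurement of factor binding.

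Total counts ranged from 21.5 M to 69.0 M per library, and the E16.5 and P0 libraries, at 21.5 M to 52.3 M, were the shallowest. At these depths 3 counts, the level below which a gene is taken as not detected, correspond to 0.0435 to 0.14 CPM, the count scaled to the library total. Every member was above that in all 15 libraries, with counts between 83 and 1694. Palate mesenchyme markers summed to 3250 to 30000 CPM and epithelial markers to 376 to 3310 CPM, all detected, so the dissected tissue held both. Bulk libraries cannot tell fewer cells of a type from less RNA per cell. Markers taken to show tissue carried over at dissection were choroid plexus genes with Hoxa4, Hoxa5 and Hoxb5. They were high in 3 libraries, at 1540 CPM in E14.5 replicate 1, 709 in E14.5 replicate 3 and 380 in P0 replicate 2. Ttr alone had 1220, 673 and 362 CPM there. Carried-over tissue is inferred from these transcripts only, since no label names it. Y-linked transcripts were almost absent from 6 libraries, the 3 of E16.5 and 1 each of E13.5 (replicate 1), E15.5 (replicate 1) and P0 (replicate 2), where Ddx3y had 0.0277 to 0.201 CPM against 16.1 to 54.5 in the other 9. E16.5 thus had no pool with male transcripts and E14.5 only such pools, so the sex of the pools and these stages cannot be told apart.

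Eda, the ligand, rose between E13.5 and E15.5, and no later step passed the test. At E13.5 its 3 libraries had 15.8, 11.6 and 15.9 CPM, scaled by TMM (edgeR's trimmed mean of M values). At E14.5 they had 13.7, 17.8 and 19.6 CPM, and at E15.5 28.6, 20.7 and 22.8. The E15.5 libraries were all above those of both earlier stages. Against E13.5 the same held for 23.7% of all tested genes, and 49.0% did not overlap in either direction. The E16.5 libraries had 21.3, 27.0 and 27.2 CPM and the P0 libraries 26.5, 23.1 and 18.4. The stage means were 14.4 ± 2.46 (SD, n = 3), 17 ± 3.03, 24.0 ± 4.08, 25.2 ± 3.34 and 22.7 ± 4.06 CPM, in order of age. The spread within a stage was even, with a coefficient of variation of 13.3% to 17.9%.

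Over the 5 stages Eda changed with an adjusted p of 0.0149 in edgeR's quasi-likelihood F test, adjusted by Benjamini-Hochberg over all tested genes. By that test 59.1% of all tested genes changed, so 2 of 4 members passing, Eda and Eda2r, is near the background. Eda was 1.67-fold higher at E15.5 than at E13.5 (log2 fold change 0.74 ± 0.20 SE, edgeR adjusted p 0.0204), where 22.9% of genes were called, and the call was lost without E13.5 replicate 2 (0.0983) or E15.5 replicate 1 (0.0767). It was 1.75-fold higher at E16.5 than at E13.5 (0.81 ± 0.20, edgeR adjusted p 0.00604), where 48.2% of genes were called. Against E14.5 the E16.5 level was 1.48-fold higher (edgeR adjusted p 0.036), a contrast in which 46.2% of genes were called. That call was lost without E14.5 replicate 1 or 2 or E16.5 replicate 2 or 3, with edgeR adjusted p of 0.0755 to 0.15. The whole span from E13.5 to P0 gave 1.58-fold (0.66 ± 0.20, edgeR adjusted p 0.0145, against 56.6% of genes called), and 0.0705 without E13.5 replicate 2, the lowest Eda library. Removal of the 3 libraries with carried-over tissue, which leaves 1 library at E14.5 and 2 at P0, moved the adjusted p over stages to 0.0598, while removal of the 3 E16.5 libraries gave 0.0207. Removal of the 6 libraries almost without Y-linked transcripts, which leaves 9 libraries of 4 stages, gave 0.169, with 0.71 on the log2 scale from E13.5 to P0 (0.0722). E15.5 replicate 1, among those removed, was the highest Eda library of its stage, while E13.5 replicate 1 and P0 replicate 2 each lay between the others of theirs.

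The largest step of Eda between neighbouring stages, from E14.5 to E15.5, was 1.41-fold (0.50 ± 0.20) with non-overlapping libraries and an edgeR adjusted p of 0.0854. Between those stages the libraries of 51.3% of all genes did not overlap, those of 24.0% were all higher at E15.5, and 26.1% of genes were called. In the order of Eda levels, E16.5, E15.5 and P0 did not differ from one another beyond their spread, with edgeR adjusted p of 0.804 to 0.878. Neither did E14.5 and E13.5, at 0.603, in a step where 0.00903% of all genes were called.

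**Figure D1:**
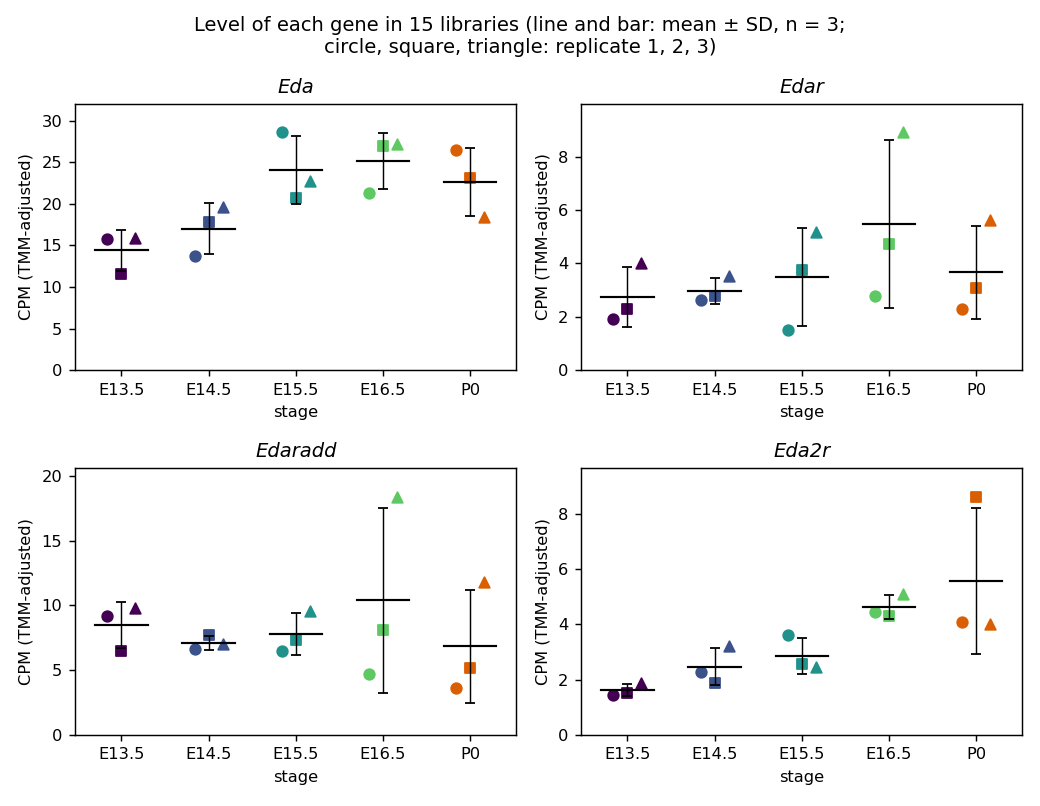
Level of Eda, Edar, Edaradd and Eda2r in CPM (vertical axis, from 0) in each of 15 libraries by stage, with replicate shown by symbol, mean as a line and SD as a bar (n = 3). Eda rises from a mean of 14.4 to 24.0 CPM by E15.5 and Eda2r from 1.61 to 5.57 by P0, while the E16.5 and P0 libraries of Edar and Edaradd spread widely.

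In the main fit, with a mean for each stage only, Edar did not pass the test over stages (edgeR adjusted p 0.392). Edar, the receptor of the longer ligand form, did not pass in any of the 10 pairs of stages there either. In the pairs not yet given, 1.41% of genes were called from E15.5 to E16.5 and 0.352% from E16.5 to P0. Its E13.5 libraries had 1.91, 2.28 and 4.03 CPM and those of E14.5 2.63, 2.78 and 3.54. At E15.5 they had 1.53, 3.76 and 5.18 CPM, one day on 2.78, 4.73 and 8.91, and at P0 2.3, 3.08 and 5.62. Libraries of every pair of stages overlapped, where over all genes non-overlap was found for 29.2% (E14.5 against E13.5), 59.8% (E16.5 against E13.5), 59.1% (both P0 against E13.5 and E16.5 against E14.5), 59.5% (P0 against E14.5), 38.6% (P0 against E15.5), 31.2% (from E15.5 to E16.5) and 11.6% (from E16.5 to P0), besides the shares given for Eda. Replicate 3 was the highest Edar library at each stage. Means ran from 2.74 ± 1.13 CPM (SD, n = 3) at E13.5 to 5.47 ± 3.13 at E16.5. The coefficient of variation reached 57.1% at E16.5, above that of Eda at every stage except E14.5, where it was 16.3% for Edar and 17.8% for Eda. From E13.5 to P0 the log2 fold change was 0.42, with a 95% interval of -0.69 to 1.52, that is 0.621-fold to 2.87-fold. E16.5 and E13.5, the ends of the order, gave 1.00 ± 0.51 (edgeR adjusted p 0.122). With a further term for replicate number in the fit, that pair was called (0.92, edgeR adjusted p 0.0153). E16.5 against E14.5 was called too (0.70, edgeR adjusted p 0.0489). Whether these numbers pair the libraries could not be decided.

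Edaradd, the adaptor that couples EDAR to NF-kB, did not pass over stages either (edgeR adjusted p 0.734) or in any of the 10 pairs. Its libraries had 9.17, 6.49 and 9.83 CPM at E13.5 and 6.59, 7.69 and 7.04 at E14.5. They had 6.47, 7.33 and 9.57 CPM at E15.5, 4.66, 8.08 and 18.4 at E16.5, and 3.58, 5.15 and 11.8 at P0. The first 3 stages sat close together, and the last 2 held both the lowest and the highest libraries. The coefficient of variation was 7.79% at E14.5 and 69.1% at E16.5. From E13.5 to P0 the log2 fold change was -0.32 (95% interval -1.35 to 0.71), and without P0 replicate 1 it was 0.03.

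Eda2r, the receptor of the shorter ligand form, had the largest fold change of the 4 members from E13.5 to P0, although differences between members were not tested. Its libraries had 1.45, 1.52 and 1.86 CPM at E13.5 and 2.29, 1.89 and 3.2 at E14.5. At E15.5 they had 3.62, 2.55 and 2.44 CPM, at E16.5 4.45, 4.32 and 5.11, and at P0 4.08, 8.63 and 4.01. All E14.5 libraries were above all E13.5 libraries, and all E16.5 libraries above all E15.5 libraries. Non-overlap of this kind, higher at the later stage, was found for 15.5% and 15.7% of all tested genes in those steps. Means rose from 1.61 ± 0.218 CPM (SD, n = 3) at E13.5 through 2.46 ± 0.672, 2.87 ± 0.653 and 4.63 ± 0.428 to 5.57 ± 2.65 at P0, where replicate 2 stood apart.

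Over stages Eda2r gave an edgeR adjusted p of 0.00217. It was 3.46-fold higher at P0 than at E13.5 (log2 fold change 1.79 ± 0.32 SE, 95% interval 1.10 to 2.49, edgeR adjusted p 0.000517). At E16.5 it was 2.87-fold higher than at E13.5 (1.52 ± 0.32, edgeR adjusted p 0.00211). Relative to E14.5, Eda2r was 1.88-fold higher at E16.5 (edgeR adjusted p 0.0307, and 0.0544 to 0.119 without E14.5 replicate 1 or 2 or E16.5 replicate 1 or 3) and 2.26-fold higher at P0 (0.00681, where 56.7% of genes were called). Against E15.5 it was 1.94-fold higher at P0 (edgeR adjusted p 0.0438, where 22.9% of genes were called). Without P0 replicate 2 that difference was 0.47 on the log2 scale (0.243), and the call was lost on leaving out any of 11 of the 15 libraries. No step between neighbouring stages passed, with edgeR adjusted p of 0.221 to 0.77, and the order of its levels was the order of age. From E15.5 to E16.5, where all later libraries were higher, the 95% interval before adjustment was 0.01 to 1.36 on the log2 scale. Without the 3 libraries with carried-over tissue, P0 replicate 2 among them, the rise from E13.5 to P0 was 1.30 on the log2 scale (edgeR adjusted p 0.00212). Without the 6 libraries almost lacking Y-linked transcripts it was 1.25 (0.0137), and the adjusted p over the 4 remaining stages was 0.0471. Of those 6, E15.5 replicate 1 and P0 replicate 2 were the highest Eda2r libraries of their stages and E13.5 replicate 1 the lowest of its stage, and the part of sex was not tested. Without the 3 E16.5 libraries the adjusted p over stages was 0.00512.

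**Figure D2:**
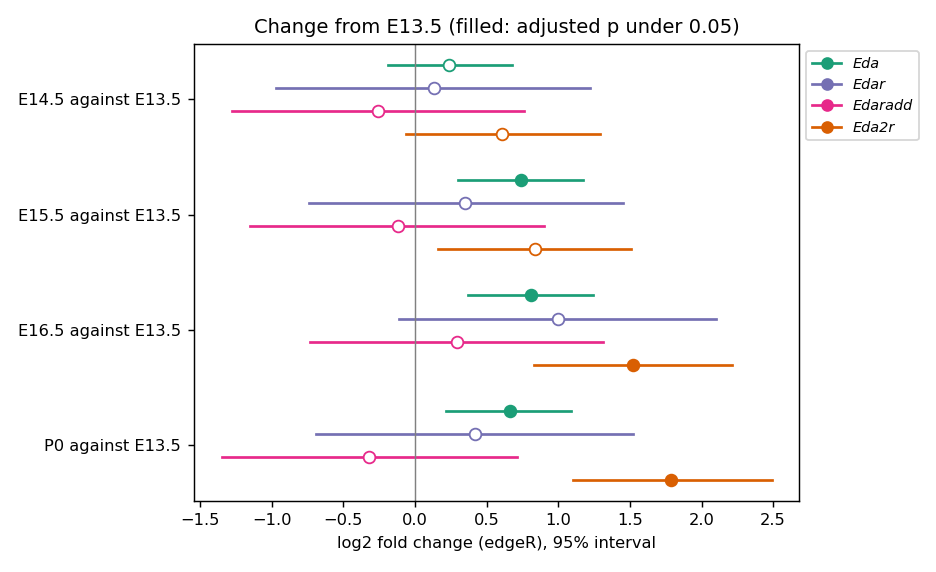
Log2 fold change from E13.5 to each later stage (horizontal axis) for the 4 genes, with 95% intervals from edgeR and filled points where the adjusted p was under 0.05. Eda is called from E15.5 on and Eda2r at E16.5 and P0 (1.52 and 1.79), while the intervals of Edar and Edaradd span 0 in all 4 comparisons, which share the E13.5 libraries.

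Per kilobase of exon, which allows levels of different genes to be compared, Eda was the most abundant member at 3.03 CPM per kb over all libraries, followed by Edaradd at 1.22, Edar at 1.01 and Eda2r at 0.582. At E13.5 the level of Edar per kilobase (0.753 ± 0.311) was above that of Eda2r (0.273 ± 0.037), and at P0 they were 1.01 ± 0.477 and 0.946 ± 0.45. Among 15 receptors of the TNF receptor superfamily compared on this scale, Eda2r ranked 15 and Edar 12. Ngfr, the low-affinity neurotrophin receptor, had the highest mean over all libraries, 57.2 CPM per kb, with 438, 517 and 478 CPM in E15.5 replicate 1, E16.5 replicate 2 and P0 replicate 1 and 64.4 to 206 CPM elsewhere. At P0 the mean of Tnfrsf12a (64.2 CPM per kb) was above that of Ngfr (59.5). Tnfrsf19 (TROY), a relative of EDAR and EDA2R that also binds TRAF proteins, stood at 21.3 CPM per kb. It did not pass the test from E13.5 to P0 (0.79 ± 0.36 on the log2 scale, edgeR adjusted p 0.0744).

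The levels of Edar and Edaradd were correlated over the libraries, and so were those of Eda and Eda2r, which both rose with stage. Over the 15 libraries, the log2 CPM of Edar and Edaradd had Pearson's r of 0.70 (permutation p 0.00408, 0.0122 after Benjamini-Hochberg adjustment over 6 pairs) and Spearman's rho of 0.70 (adjusted permutation p 0.0138). Without E16.5 replicate 3 and E15.5 replicate 1, the libraries farthest from the median of Edar, r was 0.57. Taken as deviations from the stage means, r was 0.81, which was not tested. The libraries ranked alike for both genes at E15.5, E16.5 and P0, but not at E13.5 or E14.5. Eda and Eda2r had r of 0.72 (adjusted permutation p 0.011) and rho of 0.79 (adjusted permutation p 0.0042), and 0.67 without E13.5 replicate 2 and E14.5 replicate 1. Deviations of Eda and Eda2r from the stage means had r of 0.36, so joint variation within stages was not shown for them. The permutations shuffled libraries across stages, so a change with stage that a pair shares enters these p. The other 4 pairs had r between -0.15 and 0.31, with adjusted permutation p of 0.516 to 0.924.

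**Figure D3:**
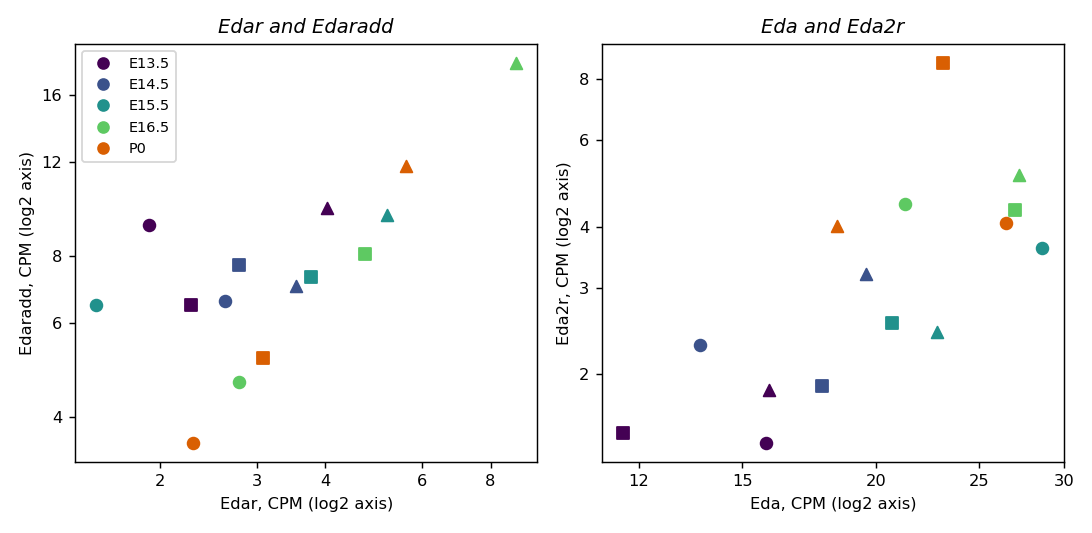
Edaradd against Edar and Eda2r against Eda in 15 libraries, in CPM on log2 axes, with colour for stage and circle, square and triangle for replicates 1, 2 and 3. Edar and Edaradd (r = 0.70) are both highest in E16.5 replicate 3, and Eda and Eda2r (r = 0.72) are both low in the E13.5 libraries.

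The libraries with the most Edar and Edaradd at the late stages, E16.5 replicate 3 and P0 replicate 3, were also high in Shh, Foxi3 and Trp63, but not in every placode or epithelial marker. Shh, the hedgehog ligand made in rugal and tooth epithelium, had 69.0 CPM in E16.5 replicate 3 and 56.3 in P0 replicate 3, and 0.777 to 12.7 in the others. Foxi3, a placode transcription factor, had 13.3 and 4.92 CPM in those libraries and at most 3.57 elsewhere. Trp63, the master regulator of stratified epithelium, had 83.3 and 90.1 CPM there and 15.7 to 60.4 elsewhere. The simple-epithelium keratin Krt8, in contrast, had 91.6 CPM in E16.5 replicate 3 against 262 and 112 in its stage mates, and 136 in P0 replicate 3 against 197 and 372. Epcam had 70.4 CPM in E16.5 replicate 3, between 58.8 and 113 in its stage mates. In P0 replicate 3 it had 150.0 CPM, its highest of all libraries. Fgf20, a placode growth factor, had 0.734 and 2.61 CPM in the pair against 0.361 to 2.5 elsewhere. Krt5 (1220 and 1580 CPM), Krt14 (328 and 472) and Dsp (305 and 340) were, like Shh, highest in this pair. The part of these transcripts' tissue in the Edar and Edaradd values was not tested.

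Across 14966 protein-coding genes with a mean of at least 1 CPM, the 5 whose log2 CPM was most like that of Edar over 15 libraries were Large2 (r 0.932), Prdm1 (0.888), Trp63 (0.879), Hs3st6 (0.870) and Rspo4 (0.869). Edaradd ranked 105 in that order. For Edaradd they included Cyp26a1 (0.942) and Cyp26c1 (0.926), which break down retinoic acid, the metal transporter Slc39a8 (0.917) and Foxi3 (0.917), with Shh at rank 9 and Edar at rank 72. For Eda they were the metalloproteinase Adam12 (0.949), Vwa5a (0.944), the transcription factor Nfic (0.941), the collagen chain Col6a3 (0.936) and the growth factor Fgf7 (0.935). For Eda2r they were Palmd (0.968), Sgms1 (0.963), Lrtm1 (0.953), Cobll1 (0.950) and Cavin2 (0.942). These libraries share stage, depth and tissue make-up, so the coefficients describe likeness of pattern only. The lists moved with single libraries. Of the 5 genes, 0 to 4 remained for Eda when 1 library was left out, with the fewest without E13.5 replicate 2. For Edar 1 to 5 remained, with the fewest without E15.5 replicate 1 or E16.5 replicate 3, and for Edaradd 2 to 5, with the fewest without E16.5 replicate 3. For Eda2r 2 to 5 remained, with the fewest without P0 replicate 2.

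Muscle transcripts, summed over 10 markers, were also more abundant at the stages with more Eda2r. The 10 skeletal muscle markers summed to 228 to 418 CPM at E13.5 and 6100 to 37400 CPM at P0. Within E16.5 they summed to 39000, 18200 and 12800 CPM in replicates 1, 2 and 3, where Eda2r had 4.45, 4.32 and 5.11. Within P0 the sums were 29900, 37400 and 6100 CPM, where Eda2r had 4.08, 8.63 and 4.01. Of the 10 muscle markers, 7 rose and 0 fell from E13.5 to P0, where 29.8% of all tested genes rose. Over that span 7 of 8 bone markers and 7 of 7 tested markers of salivary and mucous glands also rose. So did 7 of 7 ciliated and nasal markers and 3 of 4 immune markers, but 0 of 6 erythroid and 0 of 5 neuron markers. Over stages, Myog, Myod1 and Pax7 did not pass, with edgeR adjusted p of 0.0853, 0.184 and 0.476. Acta1 and Tnnt3 (both r 0.912), Myh8 (0.909), Des (0.899) and Ckm (0.891) had patterns near that of Eda2r. These 5 were picked after their values were seen, and r is not given for the other markers. From E13.5 to P0 the mean of Pax7 went from 13.4 to 5.92 CPM and that of Myod1 from 12.5 to 13.3. Means of Myog went from 34.8 to 95.6 CPM, of Myf5 from 1.36 to 4.71 and of Myh3 from 145 to 2310. The part of muscle in the Eda2r rise was not tested. Of 10 p53 target genes, 3 rose and 2 fell from E13.5 to P0, where 29.8% of all tested genes rose and 26.8% fell, with a median log2 fold change of 0.31 against 0.03 over all tested genes. The cell cycle inhibitor Cdkn1a rose 11.6-fold (27.4 to 317 CPM), Ccng1 2.92-fold and Phlda3 2.86-fold. Zmat3 fell by 0.79 and Aen by 0.41 on the log2 scale, with edgeR adjusted p of 0.00133 and 0.033, and 1 of the 2 was called with upper-quartile scaling or another filter on low counts. From E14.5 to E15.5, 2 of the 10 p53 targets rose, Cdkn1a (1.77) and Phlda3 (0.70), and 1 fell, Zmat3 (-0.53). Among all tested genes 12.7% rose and 13.4% fell in that step.

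Epithelial transcripts were more abundant at the later stages, and the ratios of Edar and Edaradd to all 12 markers together were lower there. Of the 12 markers 7 rose from E13.5 to P0 by the edgeR test, where 29.8% of all tested genes rose. The 12 epithelial markers summed to 376 to 820 CPM at E13.5 and 1230 to 3310 CPM at P0. As this sum rose, a gene of unchanged CPM would also have a lower ratio at the later stages. On their own CPM, neither Edar nor Edaradd passed the test over stages (edgeR adjusted p 0.392 and 0.734). With the E13.5 mean set to 1, the ratio of Edar to these markers in order of age was 0.953 ± 0.0306 (SD, n = 3), 0.485 ± 0.0259, 0.607 ± 0.158 and 0.326 ± 0.0634. The ratio of Edaradd was 0.714 ± 0.0956, 0.410 ± 0.229, 0.349 ± 0.125 and 0.180 ± 0.0461. All 9 Edar ratios from E15.5 on were below all 6 earlier ones. How many other genes separate in this way on the same ratio was not counted, so this is not shown to be particular to Edar.

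Between the 9 libraries from E15.5 on and the 6 earlier ones, the log2 ratio of Edar differed by -1.10, with an exact permutation p, two-sided and adjusted over the 4 members, of 0.0016. The difference was -1.58 for Edaradd (0.0016 by the same exact test), -0.91 for Eda (0.0373) and -0.47 for Eda2r (0.21). The test compares ratios, so it cannot tell a fall of a member from the rise of the markers. The Eda call was lost on leaving out any of 10 of the 15 libraries, with adjusted exact p of 0.0559 to 0.0706. Without the 5 keratins none of the 4 passed, and the differences were -0.39 for Edar (exact permutation p, adjusted, 0.286), -0.87 for Edaradd (0.0607), -0.20 for Eda (0.573) and 0.24 for Eda2r (0.573). Krt5, a basal keratin, went from between 34.9 and 176 CPM at E13.5 to between 344 and 1580 CPM at P0, while Epcam, a general epithelial adhesion protein, went from between 41.4 and 86.4 to between 75.0 and 150.0.

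**Figure D4:**
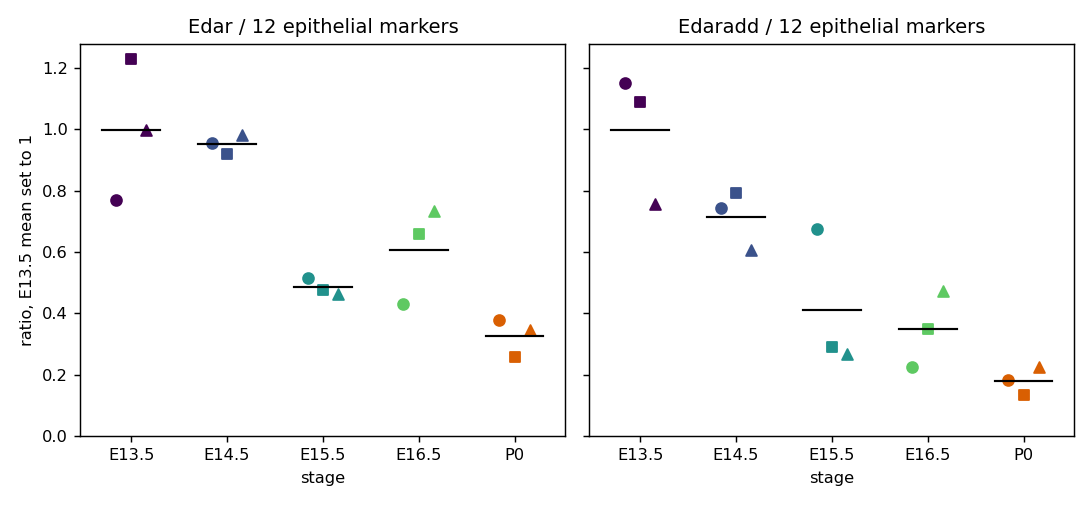
Ratio of Edar and of Edaradd to the summed CPM of 12 epithelial markers in each of 15 libraries by stage, with the E13.5 mean set to 1 and a line at the stage mean. The P0 means are 0.326 for Edar and 0.180 for Edaradd, and the falls lose their call when keratins are left out of the markers.

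Other genes of the pathway moved in both directions. Of 18 genes, from the protease that releases the ligand and the related receptor Tnfrsf19 to the subunits of NF-kB, 7 rose and 5 fell from E13.5 to P0, with a median log2 fold change of 0.26. Among all genes 29.8% rose and 26.8% fell. The inhibitor Nfkbia rose 4.09-fold (29.4 to 120 CPM, edgeR adjusted p 1.24e-05). The adaptor Traf1 rose 3.17-fold, the NF-kB subunit Relb 2.64-fold and the protease Furin 1.88-fold. Nfkbia, Relb and Traf1 are also known to be induced by NF-kB, whichever receptor drives it. The genes that fell were led by the IKK kinase Chuk (-0.88 on the log2 scale), the TAK1 kinase Map3k7 (-0.70), the adaptor Traf3 (-0.56) and the TAK1 partner Tab2 (-0.47). From E14.5 to E15.5, Traf1, Nfkb2, Relb and Furin rose and Traf3 fell. Among all genes 12.7% rose and 13.4% fell in that step. Without the 3 libraries with carried-over tissue none of the 5 was called, in a fit with 1 library left at E14.5 that is assumed to vary like the others. The log2 fold changes were then 1.38 for Traf1 (1.69 with all libraries), 0.46 for Nfkb2 (0.62), 0.59 for Relb (0.62), 0.35 for Furin (0.50) and -0.73 for Traf3 (-0.73). Between E16.5 and P0 Nfkbia alone of the 18 passed (1.07, edgeR adjusted p 0.0489).

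Of 16 genes known to act downstream of EDAR or beside it in placodes, 3 rose and 2 fell from E13.5 to P0, with a median log2 fold change of 0.55. Among all tested genes 29.8% rose and 26.8% fell over that span. The chemokine Cxcl10 rose 5.40-fold (0.173 to 0.938 CPM), the ligand Wnt10a 5.04-fold (1.59 to 8.02 CPM) and the activin inhibitor Fst 1.78-fold. Lef1, a partner of beta-catenin, fell from 37.3 to 9.18 CPM (-2.03, edgeR adjusted p 0.00259), and the adhesion molecule Madcam1 fell from 3.28 to 0.889 CPM (-1.88, edgeR adjusted p 0.000172). Most genes of the list did not pass, with Shh at 1.62 ± 1.40 and Foxi3 at 0.88 ± 1.43 on the log2 scale. None passed between any neighbouring stages, where at most 26.1% of all tested genes were called. Other receptors of the TNF receptor superfamily mostly rose, as Eda2r did. From E13.5 to P0, 8 of 12 rose and 1 fell (median 1.14), against 29.8% and 26.8% of all tested genes. Tnfrsf12a (Fn14), the receptor of TWEAK, rose 18.8-fold, Fas 5.56-fold and Tnfrsf11a (RANK) 5.18-fold. Tnfrsf10b, a death receptor, fell by 1.32 on the log2 scale. From E14.5 to E15.5, 4 of the 12 rose, where 12.7% of all tested genes rose. They were Fas (2.04), Tnfrsf12a (1.42), Tnfrsf11a (1.26) and Ltbr (0.78), on the log2 scale. Tnfrsf12a rose by a further 1.43 to E16.5 (edgeR adjusted p 0.0432).

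**Figure D5:**
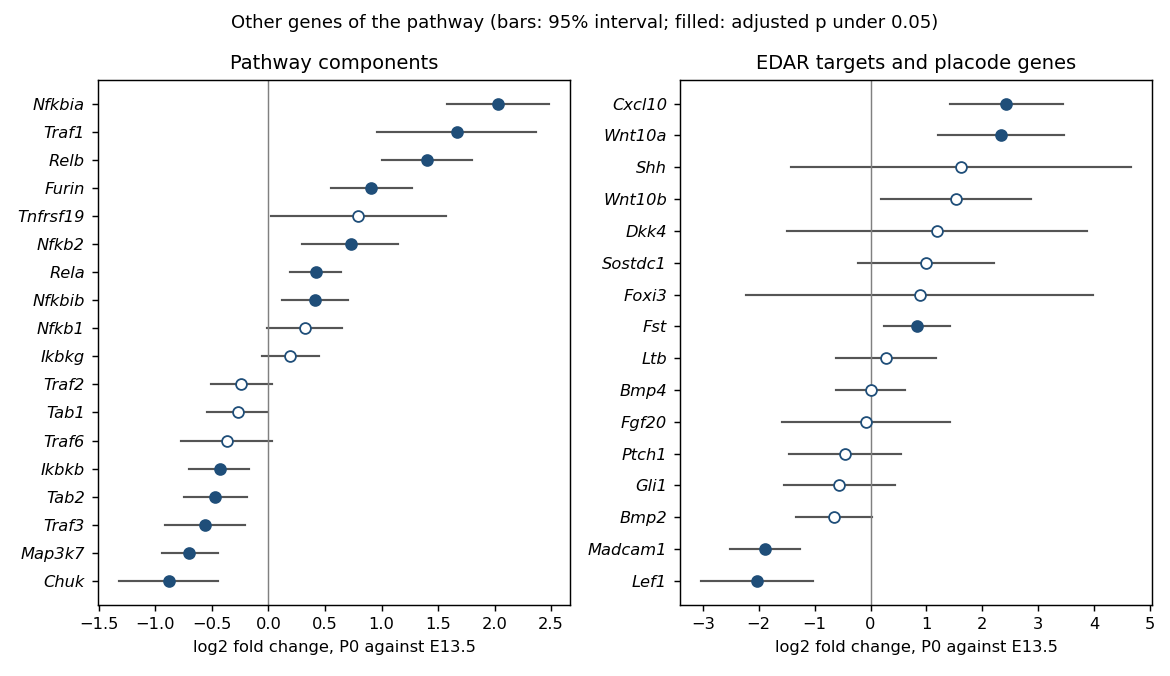
Log2 fold change from E13.5 to P0 (horizontal axis) of 18 pathway components and 16 EDAR targets and placode genes, with 95% intervals from edgeR and filled points where the adjusted p was under 0.05. Nfkbia (2.03) and Traf1 (1.67) are at the top and Chuk (-0.88) at the bottom of the components, and Cxcl10 (2.43) and Lef1 (-2.03) are at the ends of the targets.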

How the data were processed

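RNA from 15 pools of wild-type palates (3 per stage) was sequenced by the submitters. Per the file headers, the authors made the deposited counts per gene with featureCounts 2.0.1 on read pairs, reverse-stranded, with GENCODE M18, so antisense genes are kept apart. The submitters' processing notes name cutadapt 3.4, HISAT2 2.2.1, Bowtie2, SAMtools 1.12 and mm10, without roles. Gene positions are those of the deposited table, and 97.7% were identical in GENCODE M21 on GRCm38. Exon length, another column the authors deposited, gave CPM per kb. The members and gene lists were chosen with earlier results of these data known.

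Counts were filtered with filterByExpr (minimum count 10), scaled by TMM and modelled with a mean for each stage across the 15 libraries, in edgeR 4.0.16 under R 4.3.3. Quasi-likelihood F tests were adjusted by Benjamini-Hochberg over 22151 genes with a threshold of 0.05. CPM in the text are means of TMM-scaled libraries, and 95% intervals use the fit's degrees of freedom. The floor of 3 counts covers counting error only. Log2 CPM used a prior count of 2. Permutation tests ran in SciPy 1.17.1, with 100000 resamples for correlations and all regroupings for the epithelial ratio. The fit was tested on simulated counts.

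The 4 members were always named. Of each list, in each contrast, up to 4 genes past the threshold in each direction with the largest change could be named, besides members given by their level. For each member the 5 genes with the highest and the 3 with the lowest r were named. Alternatives were DESeq2 1.42.0, other scalings, filters and prior counts, 6-library fits, the replicate block, other epithelial markers and leaving out each library. Leaving out the E16.5 libraries, those with more than 300 CPM of carried-over tissue genes, or those with under 1 CPM of 4 Y-linked genes, was added after seeing the data, as were the alternatives for pairs of stages that are not neighbours. Promoters came from RefSeq. Of the genes most like Edaradd, 1 is not reported here.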

Additional observations from a re-analysis of the deposited data

How the results depend on the processing

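On leaving out each library in turn, 5 called comparisons of stages lost their call without at least 1 library. Eda from E13.5 to P0 ranged from 0.51 to 0.81 on the log2 scale (lost in 1 of 15 fits), Eda from E13.5 to E15.5 from 0.59 to 0.83 (lost in 2), Eda from E14.5 to E16.5 from 0.42 to 0.72 (4), Eda2r from E14.5 to E16.5 from 0.74 to 1.14 (4) and Eda2r from E15.5 to P0 from 0.47 to 1.15 (11). Calls were gained in 1 fit each for Eda from E14.5 to P0 (0.27 to 0.59) and Eda2r from E13.5 to E15.5 (0.63 to 0.94). Differences that turned sign on leaving out 1 library, none of them called, were for Eda from E15.5 to E16.5 (-0.03 to 0.21) and to P0 (-0.21 to 0.06). For Edar they were from E13.5 to E14.5 (-0.07, and -0.01, to 0.51) and to E15.5 (-0.05 to 0.73), from E14.5 to E15.5 (-0.18 to 0.57) and to P0 (-0.10 to 0.59), and from E15.5 to P0 (-0.38 to 0.46). For Edaradd they were from E13.5 to E16.5 (-0.42 to 0.68) and to P0 (-0.93 to 0.03), from E14.5 to E15.5 (-0.05 to 0.24), to E16.5 (-0.17 to 0.96) and to P0 (-0.65 to 0.30), from E15.5 to E16.5 (-0.29 to 0.76) and to P0 (-0.84 to 0.11), and from E16.5 to P0 (-1.26 to 0.10). Eda2r from E16.5 to P0 ranged from -0.21 to 0.46.

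Without the 3 libraries with carried-over tissue Eda over the stages had an adjusted p of 0.0598, Eda from E14.5 to E16.5 (0.48) and Eda2r from E15.5 to P0 (0.48) lost their calls, Eda2r from E13.5 to E15.5 (0.82) gained one, and Eda2r from E16.5 to P0 was -0.21. Without the 6 libraries almost lacking Y-linked transcripts Eda over the stages had 0.169, and the calls of Eda from E13.5 to P0 (0.71) and to E15.5 (0.65) and of Eda2r to P0 from E14.5 (0.69) and from E15.5 (0.70) were lost. Uncalled differences that turned sign there were Eda from E15.5 to P0 (0.06), Edar from E13.5 to E14.5 (-0.06) and from E15.5 to P0 (-0.18), Edaradd from E13.5 to E15.5 (0.03) and from E14.5 to P0 (0.06), and Eda2r from E14.5 to E15.5 (-0.02). Both settings test fewer libraries, and the cause was not tested. Without the 3 E16.5 libraries Eda2r from E15.5 to P0 (0.96, edgeR adjusted p 0.0644) lost its call, and Edaradd from E14.5 to P0 was 0.00.

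The rise of Eda from E14.5 to E15.5 passed with DESeq2 (0.52), with upper-quartile scaling (0.62) and with genes of at least 1 CPM (0.58), with adjusted p of 0.0448, 0.0421 and 0.0445. Eda from E14.5 to P0 passed with upper-quartile scaling (0.55) and with genes of at least 1 CPM (0.52), under which Edaradd between these stages was 0.10 and 0.06, and Eda2r from E13.5 to E15.5 passed with DESeq2 (0.84). With no filter on low counts, Eda from E14.5 to E16.5 (0.60) and Eda2r from E15.5 to P0 (0.91) lost their calls. Relative to epithelial markers, Eda ranged from -1.13 to -0.74 without single libraries and was called in 5 of 15 such tests. Without keratins the ratios were -0.20 for Eda, -0.39 for Edar, -0.87 for Edaradd and 0.24 for Eda2r, and with Epcam and Cdh1 only -0.23, -0.42, -0.90 and 0.21. Fewer markers are in those sums, and the cause was not tested.

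Whether the replicate numbers pair the libraries could not be decided. Deviations of 30 same-numbered pairs had r from -0.30 to 0.55, and 9 were over 0.1, but pairs with different numbers were not compared. With the replicate block, Eda over the stages had an adjusted p of 0.0266, Eda2r 0.00616, Edar 0.0669 and Edaradd 0.596. The block gave calls for Edar from E13.5 to E16.5 (0.92, edgeR adjusted p 0.0153) and from E14.5 to E16.5 (0.70, 0.0489) and ended that of Eda2r from E15.5 to P0 (0.94, 0.0674), and no other call of a member changed. It raised the EDAR targets called higher from E14.5 to E15.5 from 0 to 2, and DESeq2 to 1.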

Other observations

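The genes whose pattern over the 15 libraries was least like that of each member were also recorded. For Eda they were Rgs12 (r -0.965), Gstm7 (-0.944) and Fiz1 (-0.938), for Edar Sh2d3c (-0.831), Washc2 (-0.776) and Anapc5 (-0.754), for Edaradd Adrm1 (-0.812), Sh2d3c (-0.793) and Rnf7 (-0.791), and for Eda2r Sirt6 (-0.965), Edc4 (-0.948) and Actr5 (-0.947). Gstm7, a glutathione transferase, had 21.7 to 41.4 CPM at E13.5 and 8.23 to 18.5 at P0. Sirt6, a deacetylase of chromatin, had 39.3 to 43.3 CPM at E13.5 and 15.1 to 25.9 at P0, with its lowest value in P0 replicate 2, the library with the most Eda2r.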
